A study of Mus musculus with 12 samples.

Results

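The mitochondrially encoded transcripts were taken as every row of the deposited table whose symbol starts with mt-. There were 37 such genes among 54227, made up of 2 ribosomal RNAs, 13 protein-coding genes and 22 transfer RNAs. The libraries came from the livers of C57Bl/6 mice with the Sox9EGFP transgene, an EGFP reporter for the transcription factor Sox9, which marks bile duct cells in adult liver. After a fast of 16 h the livers were digested, and 12000 cells per library were sorted by EGFP into the gates GFPneg, GFPsublow, GFPlow and GFPhigh, called neg, sub, low and high here. All 4 populations carry the transgene and shared the fast, so neg cells are unlabelled cells of the same kind of liver and not cells of mice without the reporter. There were 3 libraries per population, 12 in all, made by random priming of total RNA after 30 min of DNase treatment. The labels give no age or sex, do not name the regulatory sequence that drives EGFP, and do not say whether libraries with the same number, whose deposited columns share a suffix across the 4 gates, came from 1 animal, so p-values measure the spread between these libraries.

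Mitochondrial DNA is a small circle that is transcribed from both strands into long precursors. The transfer RNAs sit between most of the longer genes and are cut out of the precursors, which frees the ribosomal RNAs and messenger RNAs on either side. The messenger RNAs encode subunits of respiratory complexes I, III, IV and V, and the ribosomal RNAs form the core of the mitochondrial ribosome, while polymerase, processing enzymes and ribosomal proteins are all made from nuclear genes. Pieces of mitochondrial DNA have also been copied into nuclear chromosomes, and such copies can share nearly all their sequence with the original gene.

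Recovered depth was 8775387 to 15535588 reads per library. Marker genes were checked against the gates. Biliary markers summed to 0.00902 to 0.0202% of a neg library, against 0.258 to 0.369% of a sub library, 0.729 to 0.969% of a low one and 0.666 to 0.730% of a high one. Endothelial markers summed to 1.40 to 1.94% of neg libraries, then to 0.370 to 0.468% of sub, 0.00884 to 0.0247% of low and 0.00558 to 0.0141% of high libraries. In neg 5 of the 11 biliary markers (Epcam, Spp1, Cftr, Pkhd1 and Tspan8) were at 0 in every library.

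Several members cannot be read without their nuclear copies. A block on chromosome 1 (mm10, GENCODE M21), from 24611535 to 24616197 on the minus strand, is annotated as 7 genes that copy mt-Co1, mt-Co2, mt-Atp6, mt-Co3, mt-Nd3, mt-Nd4l and mt-Nd4. The sequences below are shown because they hold bases that separate a member from its copy in the annotated transcripts: the ends of mt-Co2, mt-Atp6 and mt-Co3 beside the ends of Gm28661, Gm10925 and Gm28437, and the start of mt-Nd3 beside the start of Gm28438. Capitals in mt-Co2, mt-Atp6 and mt-Co3 mark bases past the end of the annotated copy. Whether the chromosome 1 sequence goes on with the same bases was not tested, so these capitals need not be differences between the loci. In mt-Nd3 and Gm28438 capitals mark the base that differs (T3C, counted from 1 at the first base of mt-Nd3, with the mitochondrial base first). The annotated Gm28438 also ends after 345 of the 348 bases of mt-Nd3, which is not printed here.
mt-Co2: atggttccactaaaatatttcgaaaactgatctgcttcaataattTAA
Gm28661: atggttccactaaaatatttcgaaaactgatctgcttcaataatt
mt-Atp6: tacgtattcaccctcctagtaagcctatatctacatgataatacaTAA
Gm10925: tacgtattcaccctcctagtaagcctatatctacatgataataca
mt-Co3: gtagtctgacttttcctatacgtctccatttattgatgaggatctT
Gm28437: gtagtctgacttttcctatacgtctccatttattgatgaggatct
mt-Nd3: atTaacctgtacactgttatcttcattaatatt
Gm28438: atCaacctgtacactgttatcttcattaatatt

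The mt-Atp6 stretch lies at chrM:8560-8607 and that of mt-Co2 at chrM:7649-7696, both on the plus strand. The mt-Co3 stretch lies at chrM:9345-9390 and that of mt-Nd3 at chrM:9459-9491, also on the plus strand. The copy stretches, all on the minus strand, lie at chr1:24614885-24614929 for Gm28661, chr1:24613974-24614018 for Gm10925, chr1:24613189-24613233 for Gm28437 and chr1:24613087-24613119 for Gm28438. Gm28661 matched mt-Co2 over 681 of its 684 bases with no difference, Gm10925 matched mt-Atp6 over 678 of 681, and Gm28437 matched mt-Co3 over 783 of 784. Gm10222 matched mt-Nd4l over 294 of 297 bases with no difference. Over these stretches a read cannot be assigned to the mitochondrial or the nuclear gene by its sequence. Values of these members are therefore given below alone and summed with the copy, and the sum is a sum of both loci and not a purely mitochondrial level. In all, 11 annotated nuclear genes matched a protein-coding member at 95% identity or more over at least 80% of their length; the 4 outside chromosome 1 had means of at most 3.82 normalised counts.

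Members were first described by the share of all normalised counts that each class held. The ribosomal RNAs, mt-Rnr1 of the small and mt-Rnr2 of the large mitochondrial ribosomal subunit, held the larger share in every library. Their sum was 2.78, 2.10 and 2.52% in neg, 5.25, 5.51 and 4.98% in sub, 6.00, 5.32 and 5.62% in low and 5.99, 5.89 and 5.17% in high. Every neg library lay below every EGFP-positive library, and sub, low and high overlapped one another. The population means in sub, low and high were 2.13, 2.29 and 2.30 times that in neg. The widest 95% Wilson interval of a library's ribosomal RNA share was 0.0285 percentage points, for counting error only.

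The 13 protein-coding genes held 1.03, 0.746 and 0.866% in neg, 1.30, 1.31 and 1.22% in sub, 1.50, 1.52 and 1.41% in low and 1.48, 1.80 and 1.40% in high. Neg was again below all others, and here the sub libraries were also below all low and high libraries. With the nuclear copies added, the means for neg, sub, low and high were 1.18 ± 0.202, 1.68 ± 0.0762, 1.93 ± 0.010 and 1.84 ± 0.0768% (SD, n = 3 each). The order of low and high depended on the copies: high exceeded low by 0.0838 percentage points without them and differed by -0.0899 points with them. All members together took 3.35 ± 0.486% of a neg library and 6.52 ± 0.314, 7.13 ± 0.343 and 7.24 ± 0.594% of sub, low and high libraries (SD, n = 3 each). In sorted bulk samples, a different mix of cell types and a different amount of mitochondrial RNA per cell cannot be told apart.

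**Figure D1:**
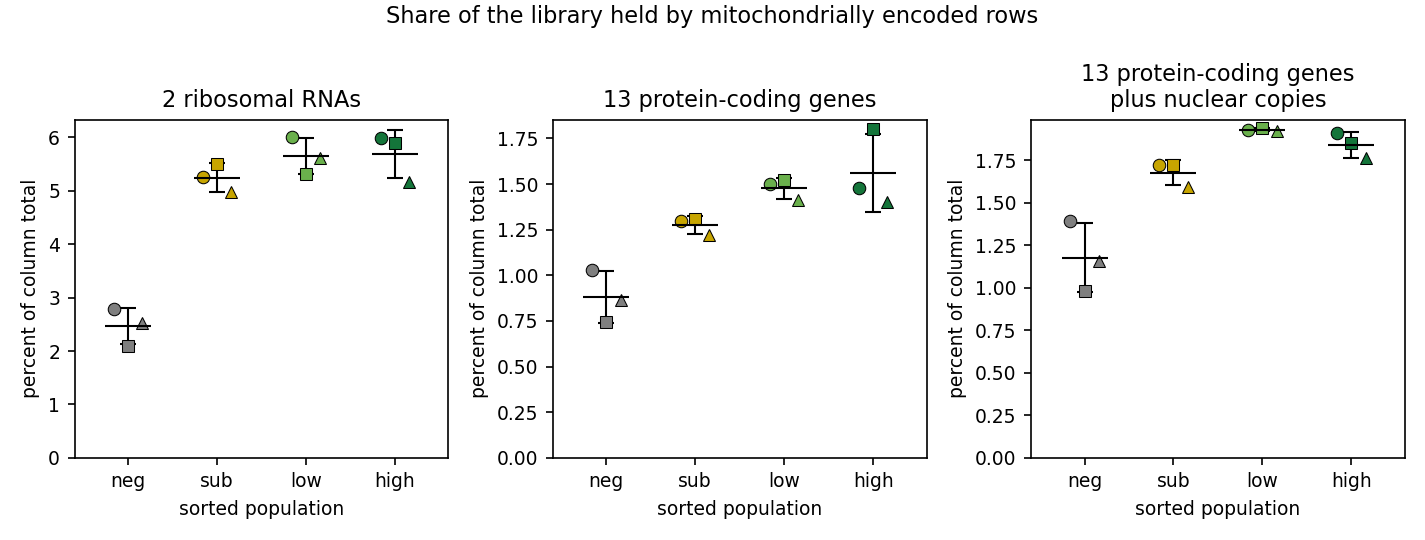
Percent of each library's normalised counts held by the 2 ribosomal RNAs, the 13 protein-coding genes, and the protein-coding genes with their nuclear copies, by sorted population. Points are libraries (circle, square and triangle for replicates 1, 2 and 3), lines are means and bars are the SD (n = 3). Neg libraries lie below all others in each panel, and the high library that leads the middle panel at 1.80% lies at 1.85%, between 1.91 and 1.76%, once copies are added.

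The 22 transfer RNA genes are 59 to 75 bases long, 14 on the plus and 8 on the minus strand, and each carries 1 amino acid to the mitochondrial ribosome or serves as a second adaptor for it. All 22 were listed at 0 in all 12 libraries. With 0 of 8775387 reads in the shallowest library and 0 of 15535588 in the deepest, a share of up to 3.42e-05% and 1.93e-05% of reads is allowed, for counting error only. That limit is on reads listed under these genes and not on their RNA in the cells, since RNAs this short may be lost in library making or quantification, which was not tested. None could be tested between populations. The genes printed here show how closely the unlisted and the abundant RNAs adjoin: mt-Tv fills the space between mt-Rnr1 and mt-Rnr2, mt-Tl1, the longest, follows mt-Rnr2 directly, and mt-Ts2 is the shortest. They lie at chrM:1025-1093, chrM:2676-2750 and chrM:11613-11671 on the plus strand, and no base is marked.
mt-Tv: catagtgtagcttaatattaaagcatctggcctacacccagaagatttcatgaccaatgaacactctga
mt-Tl1: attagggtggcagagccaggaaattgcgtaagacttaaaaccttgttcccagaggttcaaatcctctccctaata
mt-Ts2: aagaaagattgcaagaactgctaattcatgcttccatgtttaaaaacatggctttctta

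mt-Rnr1 ends at base 1024, mt-Tv spans 1025 to 1093 and mt-Rnr2 starts at 1094. No base separates these 3 genes, yet mt-Rnr1 and mt-Rnr2 ranked among the 5 most abundant rows of every library while mt-Tv was at 0.

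The comparisons between populations ask which members changed with EGFP level. Each gene was tested with limma on log2(normalised count + 1) over the 16128 genes whose mean reached 10, and the Benjamini-Hochberg adjusted p had to fall under 0.05. Of the members, 14 were tested: both ribosomal RNAs and all protein-coding genes but mt-Nd3. The 3 comparisons with neg share the same neg libraries. Against neg, 5 of the 14 were higher in sub, where 1.04% of all tested genes were higher and 1.19% changed in either direction, and none was lower. In low 6 of the 14 were higher against 2.55% of all genes, and in high 7 of the 14 against 2.44%, again with none lower. Libraries of the 2 populations did not overlap, with neg lower, for 6, 9 and 8 of the 14 in sub, low and high, against 4.69, 8.38 and 10.2% of all tested genes. The median log2 fold change of the 14 was 0.62, 0.87 and 0.87 in sub, low and high against neg, and that of all tested genes 0.00, 0.00 and 0.13. The median SE of all tested genes was 2.35 in each comparison, against 0.07 to 0.34 for the members that passed. The shares above thus set members beside genes measured less precisely, and were not matched for abundance.

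mt-Rnr2, the 16S ribosomal RNA (chrM:1094-2675, plus strand), was the second most abundant row in all 12 libraries. Its normalised count was 211914, 155118 and 185152 in neg, 464563, 469337 and 399061 in sub, 508718, 467865 and 492704 in low, and 511496, 508622 and 436427 in high. All 9 EGFP-positive libraries lay above the 3 neg libraries. The log2 fold change against neg was 1.28 in sub, 1.42 in low and 1.41 in high (SE 0.08 each; limma adjusted p 7.92e-09, 7.02e-10 and 7.32e-10).

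mt-Rnr1, the 12S ribosomal RNA (chrM:70-1024, plus strand), had 86904, 69913 and 78930 normalised counts in neg, 125836, 154010 and 147560 in sub, 146755, 140902 and 147811 in low, and 134533, 142009 and 148351 in high. Its groups were separated in the same way, with neg below all others. The log2 fold change against neg was 0.86 in sub, 0.89 in low and 0.85 in high (SE 0.07 each; limma adjusted p 1.10e-07, 3.98e-08 and 7.22e-08). mt-Rnr1 thus had the smaller rise of the pair.

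The ratio of mt-Rnr2 to mt-Rnr1 within a library does not depend on scaling by a single factor per library. Quantile normalisation does depend on ranks. There mt-Rnr2 changed by 0.00 and mt-Rnr1 by 0.38, 0.15 and 0.08 (log2) in sub, low and high against neg. In the deposited values the ratio was 2.44, 2.22 and 2.35 in neg, 3.69, 3.05 and 2.70 in sub, 3.47, 3.32 and 3.33 in low, and 3.80, 3.58 and 2.94 in high. Each neg library was below each of the others, with the narrowest gap between neg 1 at 2.44 and sub 3 at 2.70. The ratio of ribosomal RNA to protein-coding counts, with nuclear copies added to the latter, was 2.01, 2.13 and 2.16 in neg and between 2.74 and 3.21 in the other 9 libraries. The library kit's standard protocol cuts ribosomal cDNA, mitochondrial ribosomal cDNA included, so both levels are those left after that step, and whether it worked alike in all populations was not tested.

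**Figure D2:**
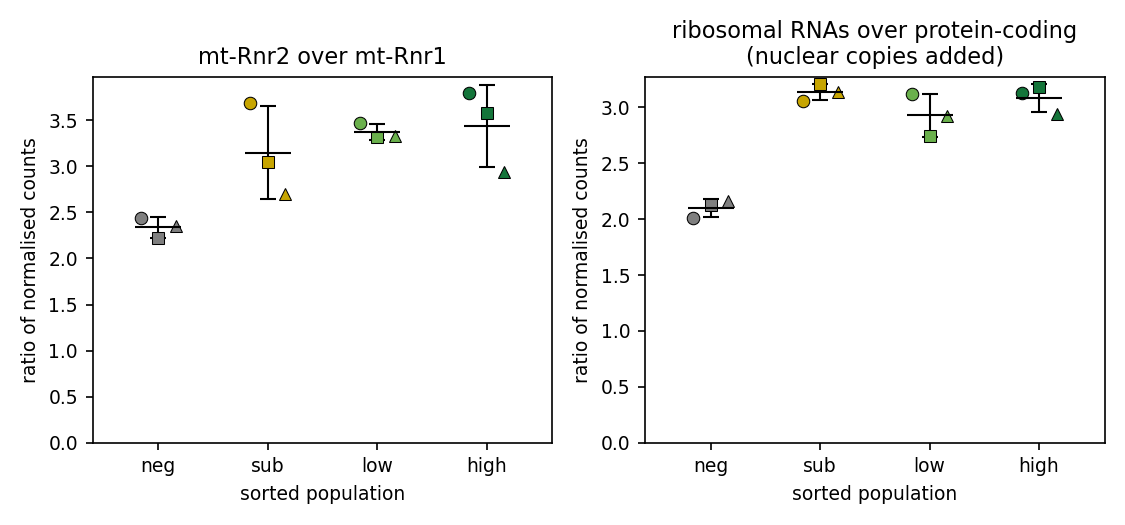
Ratio of mt-Rnr2 to mt-Rnr1 and ratio of ribosomal RNA to protein-coding normalised counts (nuclear copies added) in each library, by population. Points are libraries (circle, square and triangle for replicates 1, 2 and 3), lines are means and bars are the SD (n = 3). Neg libraries stay at or below 2.44 on the left and 2.16 on the right, under all EGFP-positive libraries.

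The ribosomal RNA calls depended on the fit. Without the variance trend neither passed in any of the 3 comparisons (limma adjusted p 0.670 to 0.777 for mt-Rnr1 and 0.509 to 0.708 for mt-Rnr2, with the same fold changes). Their SE was then 0.84 and 0.85, against 0.07 and 0.08 with the trend, so the small adjusted p-values above go with the trended fit. DESeq2 on 10 libraries ended all calls but that of mt-Rnr2 in low, with fold changes of 0.84 to 1.37 in those it ended. A fit restricted to the pair of populations compared left the fold changes as they were and ended the calls of mt-Rnr1 (0.618, 0.0971 and 0.0705) and that of mt-Rnr2 in sub (0.529). Quantile normalisation ended those of mt-Rnr1 in low and high (0.386 and 0.691) and all those of mt-Rnr2, whose rank is the same in every library. edgeR on 10 libraries kept all 6 calls. The cause of these losses was not tested.

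Complex I oxidises NADH and has 7 mitochondrially encoded subunits. Of these mt-Nd5, a proton-pumping membrane subunit, had 8762, 3767 and 6281 normalised counts in neg, 16754, 14546 and 11763 in sub, 19234, 16815 and 19484 in low, and 16673, 19747 and 21192 in high. No neg library reached the lowest EGFP-positive one. Its log2 fold change against neg was 1.26, 1.64 and 1.69 in sub, low and high (SE 0.23 each; limma adjusted p 0.00495, 1.56e-04 and 1.07e-04), the largest among the protein-coding members that passed. The call in sub was lost without sub 1 (adjusted p 0.0595), and without a filter on low values (0.0604), and those in low and high held without any 1 library. DESeq2 on 10 libraries passed mt-Nd5 in low only (0.0394; 0.171 in sub and 0.0667 in high), and edgeR in all 3.

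mt-Nd6, also of complex I, is the only protein-coding gene on the minus strand and overlaps the end of mt-Nd5 by 14 bases. Its normalised count was 2983, 3148 and 2003 in neg, 5841, 3135 and 7363 in sub, 8313, 7298 and 7047 in low, and 7966, 7226 and 5491 in high. Sub 2 lay among the neg libraries, while all low and high libraries lay above them. The log2 fold change was 1.50 in low (adjusted p 0.0124) and 1.36 in high (adjusted p 0.0241), with an SE of 0.34 in limma. In sub it was 0.95 and did not pass (adjusted p 0.299). Without low 1 the adjusted p in low was 0.0599, and without neg 3, high 1 or high 2 that in high was 0.0839 to 0.117. The call in high was also lost with edgeR (0.134), DESeq2 (0.162) and limma (0.0852) on 10 libraries and without a filter on low values (0.0591), and that in low with DESeq2 (0.0591). The sources used here do not say whether counting used the strand, so reads of the plus-strand precursor across mt-Nd6 cannot be told apart from its own.

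The other subunits of complex I did not pass against neg. mt-Nd1 had 6471 to 10912 normalised counts in neg and 6307 to 14966 in the other populations. mt-Nd2 had 1541 to 3601 in neg and 2327 to 6299 elsewhere. mt-Nd4 had 4552 to 9238 in neg and 4709 to 7120 elsewhere, so that neg held both its lowest and its highest library. The log2 fold changes of mt-Nd4 were -0.15, 0.06 and 0.03 in sub, low and high (SE 0.28, adjusted p 0.923, 1 and 1 in limma), and the latter 2 turned to -0.02 and -0.03 when libraries were set to equal totals. Only 3 transfer RNA genes lie between mt-Nd4 and mt-Nd5 on the plus strand, and the ratio of mt-Nd5 to mt-Nd4 was 1.93, 0.653 and 0.680 in neg and 2.08 to 3.56 elsewhere.

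mt-Nd4l overlaps mt-Nd4 by 7 bases and was at 0 in 8 of the 12 libraries when taken alone, with 87.7 in neg 1, 1512 in low 2, 643 in low 3 and 846 in high 3. In the 8 others its copy Gm10222 held all the reads of the pair, and in these 4 it held none. Summed, the pair gave 87.7, 22 and 218 in neg, 282, 229 and 43.9 in sub, 854, 1512 and 643 in low, and 801, 264 and 846 in high. Low and high then lay above all neg libraries, but the sum did not pass in low (log2 fold change 3.62 ± 1.44 SE, limma adjusted p 0.200). Taken alone, mt-Nd4l was called lower in sub than in neg by DESeq2 on 10 libraries (adjusted p 5.18e-06), but not by limma (0.859) or edgeR; summed with its copy it had a limma log2 fold change of 0.90 in sub, in the other direction. mt-Nd3 was at 0 in 10 libraries and reached 1.22 at most, and with Gm28438 it reached 215 in low 3 and was at 0 in 5 libraries.

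Complex III passes electrons to cytochrome c and has 1 mitochondrially encoded subunit, cytochrome b. Its gene mt-Cytb had 7916, 9155 and 9049 normalised counts in neg, 14923, 14022 and 13158 in sub, 14823, 14256 and 13910 in low, and 14980, 11191 and 14629 in high. The neg libraries lay below all others, with high 2 the closest to them. The log2 fold change against neg was 0.69, 0.72 and 0.63 in sub, low and high (SE 0.16; limma adjusted p 0.0378, 0.0117 and 0.0265). The call in sub was lost without any 1 of 9 libraries (neg 1, sub 1 to 3, low 1 to 3, high 1 or high 3; adjusted p 0.0546 to 0.118), and that in high without neg 1, high 1 or high 3 (0.0713 to 0.132). On 10 libraries mt-Cytb did not pass in sub, low or high with edgeR (adjusted p 0.479, 0.132 and 0.176) or DESeq2 (0.488, 0.374 and 0.397). In limma the call in sub also ended with a pseudocount of 5 (adjusted p 0.0580), equal column totals (0.0739) and the same 10 libraries (0.0543). Without a filter on low values limma lost the calls in sub (adjusted p 0.136) and high (0.0799).

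Complex IV reduces oxygen, and its catalytic subunit is encoded by mt-Co1. mt-Co1 had 48205, 32622 and 30384 normalised counts in neg, 61276, 62616 and 49603 in sub, 70486, 74137 and 55167 in low, and 67006, 65894 and 68858 in high. Neg 1 came close to sub 3, and no library of the groups crossed. The log2 fold change against neg was 0.66, 0.86 and 0.89 in sub, low and high (SE 0.13; limma adjusted p 0.0106, 3.90e-04 and 2.62e-04). The call in sub was lost without neg 2, neg 3, sub 1 or sub 2 (adjusted p 0.0942 to 0.103) and without a filter on low values (0.139). On 10 libraries edgeR passed mt-Co1 in all 3 comparisons, and DESeq2 in none (0.565, 0.323 and 0.368). Its copies Gm29216 and Gm13340 together held at most 0.0159% of the summed counts, so mt-Co1 is the most abundant messenger RNA here whose value a copy does not share.

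mt-Co2 and mt-Co3 encode the other core subunits of complex IV and share their reads with Gm28661 and Gm28437. mt-Co2 alone was at 0 in neg 2 and sub 2 and at 1120 to 2008 normalised counts in low and high. The copy held 60.4 to 61.7% of the pair in the 6 low and high libraries, but 62.4 to 100% in neg and sub. Summed, mt-Co2 and its copies gave 1036, 774 and 1599 in neg, 3094, 761 and 848 in sub, 5156, 3557 and 3648 in low, and 2902, 4603 and 3743 in high. Sub 1 stood with the low and high libraries and sub 2 and 3 with neg. The summed log2 fold changes of 1.90 in low and 1.76 in high (SE 0.58) did not pass (limma adjusted p 0.0699 and 0.0969).

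mt-Co3 with its copy gave 2140, 2118 and 1687 in neg, 1332, 673 and 844 in sub, 2005, 4132 and 4440 in low, and 1545, 3088 and 1869 in high. Here the sub libraries were below all neg libraries, which no other tested member showed, but the log2 fold change of -1.11 ± 0.56 (SE) did not pass (limma adjusted p 0.550). The copy's part of the pair was 53.1 to 59.1% in 11 libraries and 74.1% in sub 2.

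Complex V makes ATP, and mt-Atp6 encodes the subunit that forms its proton channel. mt-Atp6 alone had 23829, 16640 and 19935 normalised counts in neg, 29714, 31934 and 27331 in sub, 27733, 30479 and 36320 in low, and 30015, 71906 and 25358 in high. High 2 stood far above every other library. In that library Gm10925 had 169.8 normalised counts, against 23459 to 53122 in the other 11. The copy thus held 0.236% of the pair in high 2 and 58.5 to 60.3% elsewhere.

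The sum of mt-Atp6 and Gm10925 in high 2 was ordinary. It was 60077, 40098 and 48742 in neg, 74119, 77185 and 66844 in sub, 68623, 74680 and 89442 in low, and 73168, 72076 and 62480 in high. All EGFP-positive libraries lay above neg. Taken alone, mt-Atp6 passed in high against neg (log2 fold change 0.93 ± 0.24 SE, limma adjusted p 0.0332) but not in sub (0.57, adjusted p 0.441) or low (0.65, adjusted p 0.165). In low it passed without high 2 (adjusted p 0.00943), in limma on the 10 libraries of the count tests (0.0175) and in edgeR on these (0.00857). Without high 2 the change in high was 0.47 with an adjusted p of 0.113, and leaving out any 1 of 9 other libraries (all but high 1 and high 3) also ended the call (0.0522 to 0.172), as did edgeR (0.206) and DESeq2 (0.781) on 10 libraries. In limma the call in high was also lost without a filter on low values (adjusted p 0.165), with quantile normalisation (0.0813) and on 10 libraries (0.132). Summed with its copy, mt-Atp6 passed in all 3 comparisons with neg, at 0.57, 0.65 and 0.50 for sub, low and high (SE 0.11; limma adjusted p 0.00839, 0.00102 and 0.0107).

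**Figure D3:**
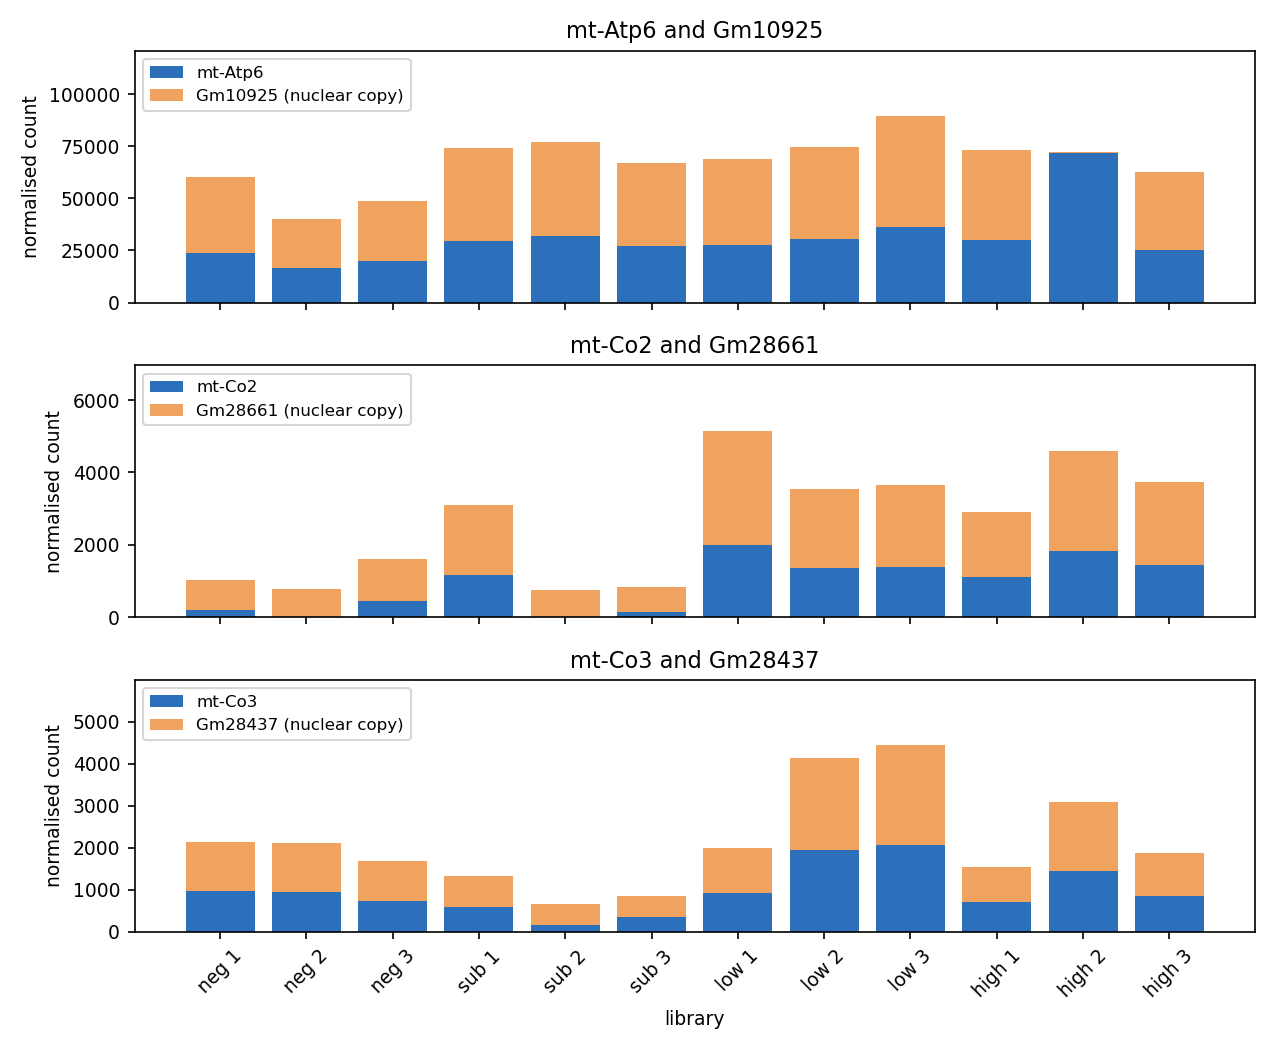
Normalised counts of mt-Atp6, mt-Co2 and mt-Co3 (blue) stacked with those of their nuclear copies Gm10925, Gm28661 and Gm28437 (orange) in each of the 12 libraries. In high 2 the mt-Atp6 bar is nearly all blue, with 169.8 counts left to Gm10925, while the height of the bar, 72076, lies within that of the other EGFP-positive libraries.

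mt-Atp8, the other complex V subunit, shares its last 43 bases with mt-Atp6. It had 139, 35.5 and 0 normalised counts in neg, 100.2, 504 and 0 in sub, 259.8, 39.1 and 0 in low, and 63.2, 137 and 0.817 in high. Replicate 3 was the lowest library of every population, and no comparison with neg passed (limma adjusted p 1 in each). The 2 genes are known to be carried by a joint messenger RNA, and the mean over the 12 libraries was 522 normalised counts per 1000 bases for mt-Atp8 and 98817 for mt-Atp6 with its copies.

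With the copies summed in, 13 protein-coding members were tested and 4, 5 and 5 of them were higher than neg in sub, low and high, against 1.06, 2.55 and 2.45% of all genes in the same fit. mt-Co1, mt-Cytb, mt-Nd5 and mt-Atp6 were among these in all 3 comparisons, and mt-Nd6 in low and high. Taken without copies, no protein-coding member passed in a fit without the variance trend (adjusted p 0.410 to 0.838 for those called above) or in one restricted to the pair of populations compared. The 5 members belong to complexes I, III, IV and V, and each complex also had members that did not pass, apart from complex III with its lone gene.

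**Figure D4:**
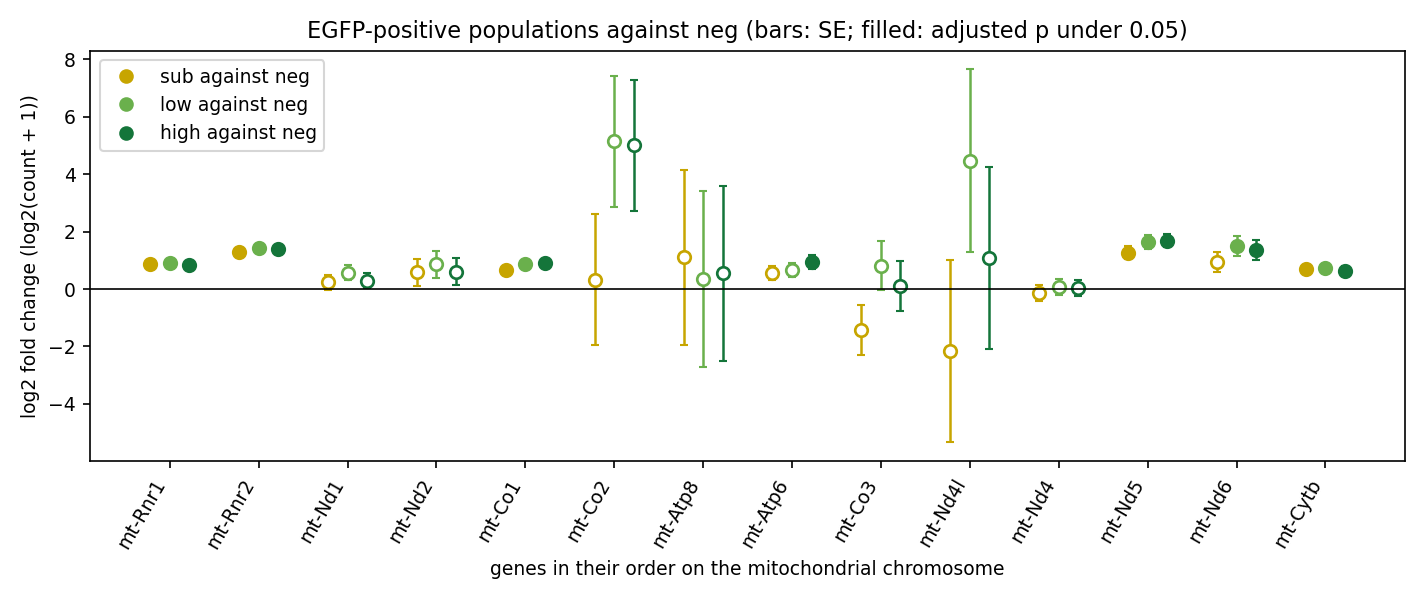
Log2 fold change of each tested member in sub, low and high against neg, on the log2(normalised count + 1) scale, without nuclear copies. Bars are the SE from limma, and filled points had an adjusted p under 0.05. Filled points lie between 0.63 and 1.69, while mt-Co2, mt-Atp8 and mt-Nd4l have bars of 2.28 to 3.18 and no filled point.

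Among the EGFP-positive populations no member passed. In low against sub 0.744% of all genes passed in either direction, in high against sub 0.986% and in high against low 0%. The lowest adjusted p of a member was 0.338, 0.493 and 1 in these comparisons, and 2, 0 and 0 members had an unadjusted p under 0.05. These 2 were mt-Co3 (log2 fold change 2.22 ± 0.86 SE in low against sub) and mt-Co2 (4.81 ± 2.28). edgeR on 10 libraries called none, and DESeq2 on 10 libraries called mt-Nd4l in low against sub and in high against sub, where mt-Nd4l alone is at 0 in every sub library while Gm10222 is not. For mt-Rnr2 the difference was 0.14 ± 0.08 in low against sub and -0.02 ± 0.08 in high against low (log2, SE), and for mt-Rnr1 0.03 ± 0.07 and -0.04 ± 0.07.

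Levels can be compared between genes only per length. As the mean over the 12 libraries of normalised counts per 1000 bases, with copies added, mt-Rnr2 stood at 253423, mt-Rnr1 at 132942, mt-Atp6 at 98817 and mt-Co1 at 37017. This order of 4 held in all 12 libraries with copies added. Without them mt-Atp6 was below mt-Co1 in low 1, low 2 and high 3. Next came mt-Nd1 at 11294, mt-Cytb at 11073 and mt-Nd6 at 10889, which did not keep an order: mt-Nd1 was above mt-Cytb in 6 of 12 libraries, 1 or 2 of each population. mt-Cytb was above mt-Nd6 in 3 of 3 neg, 2 of 3 sub, 0 of 3 low and 1 of 3 high libraries. mt-Nd5 stood at 7996 and mt-Nd4 at 4548, with mt-Nd5 higher in 10 of 12 and lower in neg 2 and neg 3. mt-Co2 at 3865, mt-Nd2 at 3281 and mt-Co3 at 2750 again kept no order, with mt-Co2 above mt-Nd2 and mt-Nd2 above mt-Co3 in 6 of 12 libraries each. mt-Co2 was above mt-Nd2 in 0 of 3 neg, 1 of 3 sub, 2 of 3 low and 3 of 3 high libraries, but taken alone its mean of 1354 lay below the 3281 of mt-Nd2. mt-Nd4l at 1628, mt-Atp8 at 522 and mt-Nd3 at 80.2 were lowest. These are also the shortest protein-coding members, at 297, 204 and 348 bases. Whether short genes lose reads in library making or quantification was not tested, so this order need not be that of the RNAs in the cells.

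Neighbouring genes differed widely in normalised counts per length, and whether their RNAs differ as much in the cells was not tested. mt-Co2 and mt-Co3 flank mt-Atp8 and mt-Atp6 on the same strand, and the level per length of mt-Atp6 with its copies exceeded that of both in all libraries.

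**Figure D5:**
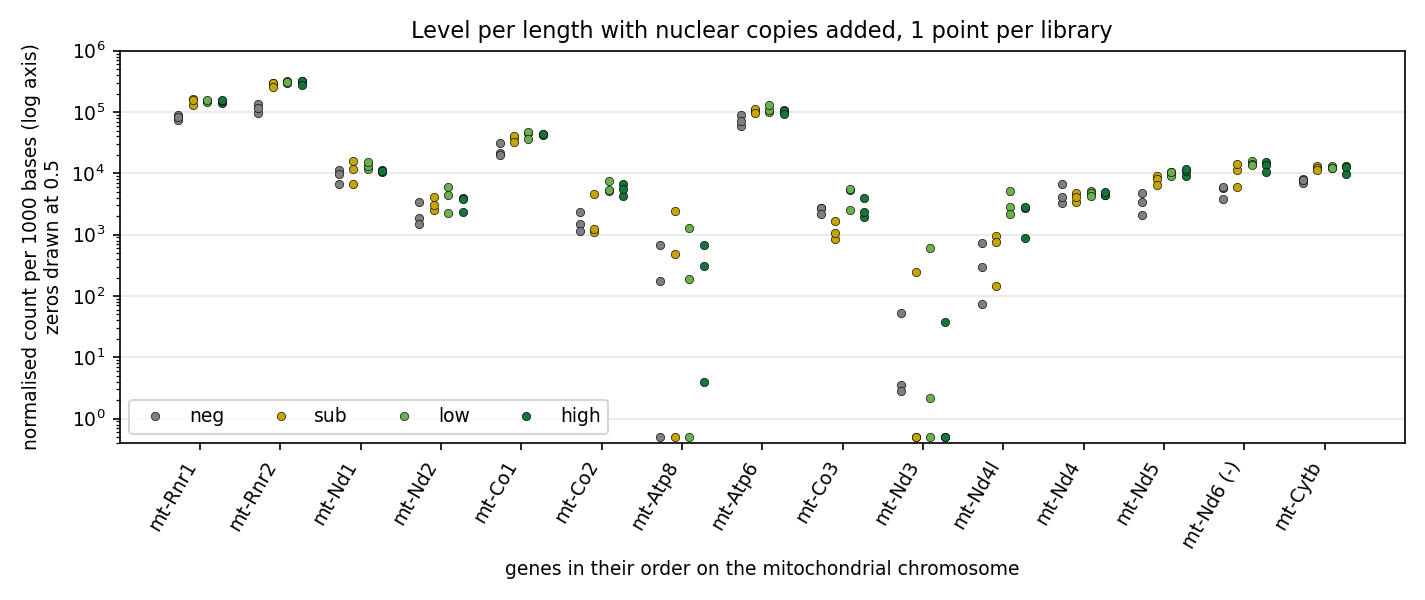
Normalised counts per 1000 bases, nuclear copies added, for the 15 ribosomal RNA and protein-coding members in their order on the mitochondrial chromosome. The axis is a log axis, each point is a library, zeros are drawn at 0.5, and mt-Nd6 is marked as the minus-strand gene. Neg points lie below the rest for mt-Rnr1, mt-Rnr2, mt-Co1, mt-Atp6, mt-Nd5 and mt-Cytb, and mt-Atp8 and mt-Nd3 spread from 0 upward.

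The nuclear genes that run mitochondrial gene expression were taken as a list of 48, of which 40 were tested. In sub against neg none passed in limma, where 1.19% of all genes passed, with 1 at an unadjusted p under 0.05. In low 1 was higher and 1 lower, where 4.69% of all genes passed in either direction, and in high 1 was higher, against the same 4.69%. An unadjusted limma p under 0.05 was reached by 4 of the list in low and 3 in high. The median log2 fold change of the list was 0.00, 0.39 and 1.85 in sub, low and high against neg. These 2 of 40 in low and 1 of 40 in high lay near or below the share of all genes.

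Ppargc1a, the coactivator PGC-1alpha of mitochondrial biogenesis, was at 0 in all 3 neg libraries and in sub 1 and 2, at 1283 normalised counts in sub 3, at 586, 3347 and 1003 in low, and at 758, 570.0 and 541 in high. Against a floor of 3 reads in the neg library where a read weighs most, the mean was at least 448-fold higher in low and 169.8-fold in high (limma adjusted p 0.0261 and 0.0458). These bounds hold for counting error only. Within sub, libraries at 0 stood beside 1 at 1283, so zeros in neg need not bound its level at that floor. Without low 2, which had the highest value, the bound in low was 217-fold. Leaving out any 1 neg or low library ended the call in low (0.0553 to 0.109), and any 1 neg, low or high library that in high (0.0641 to 0.144). The call in high also ended without a filter on low values, without the variance trend, with the replicate block and in limma on 10 libraries. Fitting only the pair of populations compared ended both calls. Polg2, the accessory subunit of the mitochondrial DNA polymerase, moved the other way, with 2138, 5507 and 3729 in neg, 663, 539 and 1527 in sub, 177, 563 and 515 in low, and 599.7, 283 and 794 in high. Every neg library lay above all others. Its log2 fold change in low was -3.24 ± 0.88 (SE, limma adjusted p 0.0388), and the call was lost without neg 2, neg 3, high 1 or any 1 low library (0.0521 to 0.133). In sub and high the log2 fold changes of -2.11 and -2.78 did not pass in limma (adjusted p 0.420 and 0.0805), while DESeq2 on 10 libraries passed both (0.0144 and 0.0271) and limma with a minimum mean of 100 passed high (0.0442). The call in low was lost with edgeR on 10 libraries (0.0525), without the variance trend (0.135) and in the fit of only that pair of populations (0.102).

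The genes closest to mitochondrial transcription and processing gave uneven values. Polrmt, the mitochondrial RNA polymerase, had 40.8, 1569 and 0 normalised counts in neg, 0 in all sub libraries, 243, 657 and 0 in low, and 8.09 to 123 in high. Tfam, which packages mitochondrial DNA and takes part in its transcription, ranged from 0 to 749. Elac2, which cuts transfer RNAs from the precursor at their 3′ side, ranged from 0 to 1233, and Lrpprc, which stabilises mitochondrial messenger RNAs, from 0 to 1135. None of these 4 passed in any of the 6 comparisons, and their SE of 2.04 to 3.01 on the log2 scale compares with 0.07 to 0.34 for the members that passed.

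Other measures were set beside the same populations. Hepatocyte markers summed to 0.00376 to 0.00812% of neg libraries and to 0.0409 to 0.0706% of sub and 0.122 to 0.189% of low and 0.158 to 0.188% of high libraries. They did not move as one. Mean normalised counts in neg, sub, low and high were 162, 3539, 11246 and 11927 for Alb and 0.230, 1289, 3270 and 5268 for Ahsg. For Apoa1 they were 411, 116, 82.4 and 53.5, and for Cyp2e1 51.7, 166, 4.21 and 0. Of the 12 hepatocyte markers 6, 3, 3 and 5 were at 0 in neg, sub, low and high. Hnf4a, Fgb and Tat were at 0 in neg only, Cps1 in sub and high, Cyp2e1 in high only, Serpina1a in all but sub, and Apoc3 and Cyp3a11 in all populations. Stellate and mesenchymal markers summed to 0.236 to 0.387% in neg and 0.242 to 0.344% in sub, and to at most 0.0163% in low and high, where Lrat and Colec11 were at 0. The nuclear RNAs Malat1 and Neat1 took 6.31 ± 0.845% and 0.433 ± 0.114% in neg, 7.59 ± 0.276% and 0.660 ± 0.0901% in sub, 7.26 ± 0.278% and 0.840 ± 0.0647% in low, and 6.95 ± 0.510% and 0.778 ± 0.120% in high (SD, n = 3 each). Neat1 was lower in every neg library than in every other, while for Malat1 neg 3 at 7.07% lay above low 1, high 1 and high 2, so its groups overlapped. Actb took 0.0453 to 0.0893% in neg and 0.105 to 0.252% in all other libraries. Gapdh ran the other way, with means of 0.00962, 0.00746, 0.00552 and 0.00411% in neg, sub, low and high, though its libraries overlapped. The neg libraries overlapped those of each other population for Rn7sk and Rn7s1. Rpph1 took 0.874 to 1.08% in neg, 0.884 to 0.976% in sub and 1.11 to 1.35% in low and high. The part of cell types, and of these RNA measures, in the mitochondrial differences was not tested.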

How the data were processed

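The only file is the authors' deposited matrix, in which each gene has 1 normalised count (a signal) for every library. The submitters' processing notes name Salmon, DESeq2 1.26.0 and mm10; the annotation release and the use of strand are not given in the sources used here. In each of the 12 columns 100% of deposited values were whole multiples (tolerance 0.01) of the smallest value, the value of 1 read, and these gave the recovered reads. Factors recomputed by median of ratios over 3215 genes multiplied by that value gave 1.000 in all libraries.

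The members, the lists of nuclear genes and markers, and the rule for named genes (all members by class, the highest nuclear copies, list genes that passed, and Polrmt, Tfam, Elac2 and Lrpprc) were chosen with earlier results of these data known. Of the symbols, 52258 matched GENCODE M21 and 1969 did not, so the authors' release may differ; all 37 members matched. Positions and sequences are from that annotation. Copies were found with blastn 2.17.0. limma 3.58.1 in R 4.3.3 (lmFit, then eBayes with the trend option) used the 12 libraries together and population alone as predictor (8 residual degrees of freedom), a pseudocount of 1 and a minimum mean of 10, two-sided. Log2 fold changes are differences of mean log2(normalised count + 1), so those of genes low in every library are understated. Where single libraries are at 0, they can instead exceed the log2 ratio of the means. For mt-Co2 in low against sub the value was 4.81, with mean normalised counts of 1592 and 437. Count tests on recovered reads (edgeR 4.0.16, DESeq2 1.42.0) used 10 libraries. Sub 3 and high 2, where a read is worth 0.997 and 1.01, were left out by a rule against values this close to 1. Both met the checks of whole multiples and of recomputed factors given above, so their reads were recovered as in the others. Tests were tested on simulated data, and no result given here rests on that. Pseudocount, filter, scaling, trend, replicate block, samples in the fit, tool, denominators and left-out libraries were varied. The labels give no batch or date. Reads carry no stated molecular identifiers, so intervals cover counting error only.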

Additional observations from a re-analysis of the deposited data

How the results depend on the processing

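Depth gave 95% intervals of class shares at most 0.0316 percentage points wide, for counting error only. The number of ribosomal RNAs that passed in sub, low and high against neg, 2 in each, became 0, 0 and 0 without the variance trend, 0, 1 and 1 in a fit of only the 2 populations compared, 0, 1 and 0 with DESeq2 on 10 libraries, and 1, 0 and 0 with quantile normalisation, which by its construction sets mt-Rnr2, ranked second in every library, to a change of 0.00. The number of protein-coding members that passed, 3, 4 and 5, became 0, 0 and 0 without the trend and in the fit of 2 populations, 1, 1 and 0 with DESeq2 (mt-Nd4l, lower in sub and not among the 3 called by limma, and mt-Nd5 in low), and 0 in sub and 2 in high without a filter on low values. In high it was 2 with edgeR and 3 with limma on the same 10 libraries, an alternative that, like summing the copies, was chosen after seeing the data. DESeq2 also passed 1 protein-coding member, mt-Nd4l, in low against sub and 1, again mt-Nd4l, in high against sub, where limma passed 0. The number of protein-coding members in sub against neg was 2 with a pseudocount of 5, with equal column totals, and with edgeR or limma on 10 libraries. Leaving out 1 library gave 0 to 3 in sub (0 without sub 1, 1 without sub 2) and 3 to 4 in high against neg. The cause of these shifts was not tested. The ribosomal RNA share in low minus neg was 3.53 points with member rows taken out of the total, and the protein-coding one 0.753 points with copies added (0.598 without); high minus low turned to -0.0899. The replicate number as a block left all counts of members as they were (2 ribosomal RNAs and 3, 4 and 5 protein-coding members); of the named genes it ended only the call of Ppargc1a in high (adjusted p 0.0509). Same-numbered libraries' deviations correlated at -0.02 to 0.03 over 18 pairs, and those of other numbers at -0.04 to 0.02 over 36 pairs. With a median SE of 2.35 over all tested genes, this cannot decide whether same-numbered libraries share an animal. The numbers were not used as a pairing in the main fit. Columns of same-numbered libraries share a suffix in all 4 gates, which the labels do not explain and which may mark a shared animal.

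Changes of sign touched only results that had not passed in limma on the 12 libraries. Leaving out 1 library in turn, the log2 fold change against neg of mt-Atp8 ran from -0.94 to 3.71 in sub, -1.71 to 2.57 in low and -1.5 to 2.45 in high, and that of mt-Nd4 from -0.38 to 0.13, -0.17 to 0.34 and -0.2 to 0.31. It ran from -2.41 to 3.23 for mt-Co2 and -0.03 to 0.6 for mt-Nd1 in sub, and from -0.18 to 0.33 for mt-Co3 and -2.16 to 3.24 for mt-Nd4l in high. In high, mt-Atp8 turned to -0.85 with DESeq2, -0.75 with edgeR, -0.67 with limma on 10 libraries and -0.49 with quantile normalisation, and mt-Co3 to -0.18, -0.09 and -0.18 in the first 3. In limma on 10 libraries mt-Co2 in sub turned to -0.38 and mt-Nd1 in sub to -0.03. Equal column totals turned mt-Nd4 to -0.02 in low and -0.03 in high, and summing the copies turned mt-Nd4l in sub to 0.90. Rows of cytosolic ribosomal RNA were not analysed here.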
